A study of Mus musculus with 21 samples.

Results

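Of 127163 distal regions bearing H3K4me1 in mouse embryonic stem cells, 1034 (0.813%) had a lower level in formative than in naive cells in each of 4 genotypes, including cells without MLL3 and MLL4 and cells with CD alleles of both. These 1034 regions are described here and are called the members. A region was eligible when the deposited table placed it in an intron or between genes, more than 1000 and at most 100000 bp from the nearest start site, with a mean log2 read concentration (Conc) of at least 4. Distance runs from the centre of a region, so a wide region called distal can still cover a start site. Members were selected on the measured H3K4me1 values themselves: the log2 level in formative cells had to lie 1.5-fold or more below that in naive cells in every genotype. The word lost stands for that threshold throughout and for nothing else. The whole table holds 186826 regions.

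The assay was CUT&RUN, in which nuclease tethered to an antibody releases the chromatin around a mark. Naive cells were those kept in LIF2i, and formative cells were taken 63 h after its withdrawal. In each state there were DKO cells (MLL3KO_MLL4KO), dCD cells (MLL3CD_MLL4CD), the floxed line that also lacks MLL3 (MLL3KO_MLL4fl) and wild-type cells (WT), with 2 H3K4me1 libraries per group in 8 groups. WT and dCD carry the line label R1, no line is named for floxed and DKO, and the labels do not say whether a line is 1 clone or what CD stands for. The fields disagree on the catalogue number of the H3K4me1 antibody, the protocol giving one sold against H3K27ac, so the mark is named as labelled. Only folds of RNA were used, so the levels of genes that define embryonic stem cells were not checked.

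H3K4me1 marks enhancers, both active and poised, and MLL3 and MLL4 (genes Kmt2c and Kmt2d) are the main enzymes that place it there, while H3K27ac marks the active ones. Naive pluripotency is held by LIF signalling through STAT3 and by a network of transcription factors that includes Esrrb, Klf2, Klf4 and Tfcp2l1, which bind distal enhancers and are switched off as cells move towards the formative state. A mark can be lower after an enhancer is switched off through removal by demethylases or dilution at replication, and neither was measured here.

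Each group has 1 deposited column that combines its 2 libraries, so there is no spread between libraries, and the H3K4me1 differences carry no SD and no test of their own. Levels were converted to normalized reads to show the depth. Members had a median of 21.1, 18.5, 19.3 and 20.0 normalized reads in formative DKO, dCD, floxed and WT cells, and of 37.9, 35.2, 49.8 and 50.1 reads in the same genotypes in the naive state. In 486 members (47.0%) every naive group had at least 32 reads, against 43.4% of eligible regions.

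Sequence stretches are shown from 8 members, because they place short motifs of naive-state factors inside named regions. They were taken from the members with the largest losses in all genotypes and from those nearest to genes of a naive pluripotency list. Each is the 150-base stretch of the mm10 plus strand around a motif match outside repeat-masked sequence, read from the RefSeq copy of that build. Capitals mark a KLF motif (GGGNGTGG, or its reverse complement) or, in the Klf4 and Kcnip4 members, an Esrrb and Nr5a2 motif (TCAAGGNCA, or its reverse complement). A match is a run of letters and does not show that a factor is bound. Another 10 members of that choice, among them those of Esrrb, Jam2, Tet2 and Tfcp2l1, held no such match outside repeats.
Klf4 member, chr4:55525041-55525190: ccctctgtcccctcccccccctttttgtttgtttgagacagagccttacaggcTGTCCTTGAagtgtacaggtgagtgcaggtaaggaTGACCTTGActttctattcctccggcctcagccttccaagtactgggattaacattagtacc
Klf2 member, chr8:72324459-72324608: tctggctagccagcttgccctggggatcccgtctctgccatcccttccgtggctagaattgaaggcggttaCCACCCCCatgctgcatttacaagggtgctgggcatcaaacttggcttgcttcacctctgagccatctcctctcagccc
Zfp42 member, chr8:43269529-43269678: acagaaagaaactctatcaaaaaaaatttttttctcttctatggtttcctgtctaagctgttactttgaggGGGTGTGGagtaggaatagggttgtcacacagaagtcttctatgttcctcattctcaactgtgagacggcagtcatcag
Mras member, chr9:99409354-99409503: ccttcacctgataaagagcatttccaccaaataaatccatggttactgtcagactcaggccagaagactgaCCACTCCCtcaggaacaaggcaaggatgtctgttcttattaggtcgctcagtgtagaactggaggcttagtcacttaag
Arid5b member, chr10:68233672-68233821: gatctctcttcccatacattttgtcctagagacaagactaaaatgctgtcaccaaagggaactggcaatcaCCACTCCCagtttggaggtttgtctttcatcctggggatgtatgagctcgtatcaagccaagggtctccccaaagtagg
Kcnip4 member, chr5:48611694-48611843: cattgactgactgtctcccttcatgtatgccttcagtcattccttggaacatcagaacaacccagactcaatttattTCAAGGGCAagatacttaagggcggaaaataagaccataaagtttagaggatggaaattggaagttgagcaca
Nudt4 member, chr10:95585397-95585546: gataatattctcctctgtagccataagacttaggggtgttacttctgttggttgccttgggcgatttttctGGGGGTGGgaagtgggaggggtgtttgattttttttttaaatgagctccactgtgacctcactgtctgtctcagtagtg
Gm13570 member, chr2:60049292-60049441: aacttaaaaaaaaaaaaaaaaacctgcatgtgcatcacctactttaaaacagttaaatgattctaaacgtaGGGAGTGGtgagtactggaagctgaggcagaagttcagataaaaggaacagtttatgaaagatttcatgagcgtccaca

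**Figure D1:**
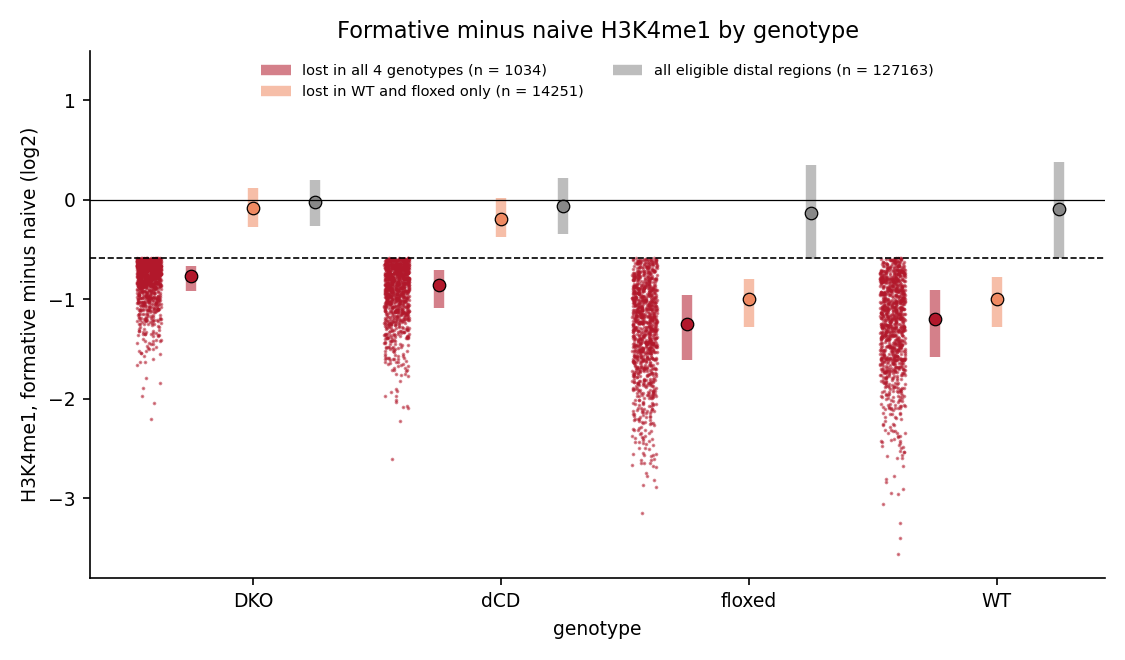
Formative minus naive H3K4me1 (log2, vertical axis) in DKO, dCD, floxed and WT cells. Dots are the 1034 members, bars span the middle 50% of each set with its median as a circle, and the dashed line is the 1.5-fold threshold that chose the members. Members lie below the line by construction, with medians of -0.76 in DKO and -1.20 in WT, while all eligible regions have medians near 0.

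The loss was smaller in the mutants than in the controls. The median formative minus naive difference over the members was -0.76 in DKO, -0.86 in dCD, -1.25 in floxed and -1.20 in WT cells on the log2 scale, while over all eligible regions it was -0.02, -0.06, -0.13 and -0.09 in the same order. These values chose the members and are a description. Across all eligible regions, 6.84% were lost in DKO, 11.4% in dCD, 25.5% in floxed and 24.9% in WT cells. Of the 21135 regions lost in both floxed and WT cells, 1034 (4.89%) were lost in both mutants, 1612 (7.63%) in DKO but not dCD, 4238 (20.1%) in dCD but not DKO, and 14251 (67.4%) in neither. The last group is used below as the comparison closest to the members and is called the control-only regions. DKO showed the smallest loss of the 4 genotypes in 526 members, dCD in 334, floxed in 79 and WT in 95. The loss in DKO was at least as large as in WT in 171 members (16.5%), and that in dCD in 259 (25.0%). A 2-fold difference in all 4 genotypes was met by 46 members.

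The values that the rule cuts between lie close together. Just inside, the member 40546 bp from the start site of Pole4 had differences of -0.60, -0.60, -0.59 and -0.68 in DKO, dCD, floxed and WT cells. Just outside, a region near Garnl3 had -0.59 in DKO, -0.58 in dCD, -1.22 in floxed and -1.25 in WT cells. Counts of members near the threshold therefore depend on its exact place.

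In the naive state the mutants held less of the mark at most members, as at most eligible regions. The naive level in DKO was below that in floxed cells in 783 members (75.7%), with a median difference of -0.44, and the naive level in dCD was below that in WT cells in 873 (84.4%), with a median of -0.52. Of all eligible regions, 62.3% were lower in naive DKO than in naive floxed cells, with a median of -0.23, and 71.0% in naive dCD than in naive WT cells, with a median of -0.33. Over all regions of the table the group medians also differed, at 5.26 in naive DKO against 5.47 in naive floxed cells, and at 5.25 in naive dCD against 5.61 in naive WT cells. With every group centred on its own median the naive differences at the members were -0.22 for DKO minus floxed and -0.16 for dCD minus WT. In the formative state the median difference at the members was 0.08 for DKO minus floxed, or 0.29 after centring, and -0.17 for dCD minus WT, a sign that turned to 0.23 after centring and 0.18 after quantile normalization. At the control-only regions the naive differences were -0.70 for DKO minus floxed and -0.76 for dCD minus WT. There the formative differences were 0.32 and 0.15 for the same contrasts.

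Members included regions both with and without a naive deficit in DKO. In 193 members (18.7%) the naive DKO level was at least 2-fold below the naive floxed level, a share near the 15.7% of all eligible regions and below the 32.5% of control-only regions. These had a median formative minus naive difference of -0.78 in DKO and -1.48 in floxed cells. In the 251 members (24.3%) where naive DKO stood at or above naive floxed the medians were -0.75 in DKO and -1.01 in floxed cells. The naive levels that make this split are also a term of those differences, so a larger floxed difference follows in part from the split itself, and no comparison is drawn from it.

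The test that the authors ran on WT libraries bears on 1 of the 4 genotypes, and on the contrast that the rule used. By the FDR (false discovery rate) of the authors' deposited table, 612 members (59.2%) were lower in formative WT cells at a threshold of 0.05, against 11.7% of all eligible regions. For the control-only regions that share in the authors' deposited table was 55.3%. The remaining members did not pass it, and nothing is read from these shares because the same contrast chose the members.

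The 10 members with the largest loss in their least changed genotype were nearest to Fbxo15, Nudt4, Rph3a, Kdm3a, Arid5b, Tfcp2l1, Kcnip4, Gm13570, Dlgap3 and Nmnat2. The strongest lay in an intron of Fbxo15, which encodes an F-box protein long used as a marker of undifferentiated embryonic stem cells, at 3328 bp from the start site. There DKO cells had 22.6 normalized reads in the formative and 87.1 in the naive state, and dCD cells had 34.9 and 120.3. Floxed cells had 31.0 reads in the formative and 109 in the naive state, and WT cells had 28.0 and 87.7. The 4 formative values all lay below the 4 naive values, and the log2 differences of -1.89 in DKO, -1.75 in dCD, -1.77 in floxed and -1.60 in WT were about as large in the mutants as in the controls. In the authors' deposited table H3K27ac at this region had a log2 fold of -2.99 in DKO and -2.46 in WT cells, and Fbxo15 RNA had -2.79 in DKO and -3.67 in WT cells. H3K27ac folds there were also below -1 in both genotypes for Kdm3a, Arid5b, Tfcp2l1, Kcnip4, Gm13570 and Dlgap3. Rph3a and Nmnat2 went the other way, with 3.98 and 6.69 in DKO and 0.81 and 2.18 in WT cells. Nudt4 had -0.11 in DKO and -2.48 in WT cells.

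Kdm3a, which encodes a demethylase of H3K9, had a member in an intron at 1982 bp from its start site. In the formative and naive states it had 12.0 and 35.1 reads in DKO, 8.41 and 54.2 in dCD, 10.7 and 48.1 in floxed and 13.2 and 41.9 in WT cells. Here dCD showed the largest difference, at -2.61, against -1.62 in WT. The intronic member 45115 bp from the start site of Arid5b, which encodes a DNA-binding protein that partners with a histone demethylase, had 9.77 and 26.4 reads in DKO, 7.84 and 31.5 in dCD, 10.7 and 29.4 in floxed and 13.2 and 40.5 in WT cells, again formative first. Its log2 differences were -1.41, -1.97, -1.43 and -1.59. The member 10545 bp from the start site of Kcnip4, which encodes a potassium channel-interacting protein and whose sequence is shown above with an Esrrb and Nr5a2 motif, had formative and naive reads of 32.1 and 88.9 in DKO, 27.04 and 72.8 in dCD, 32.8 and 137 in floxed and 29.6 and 101 in WT cells. Formative stood below naive in each of these members in every genotype, as the rule requires. Several of the 10 were thinly covered, and the members nearest Nudt4 and Nmnat2 had 10.2 and 5.61 reads in naive DKO cells.

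Loss at Tfcp2l1 was spread over the locus rather than over 1 region. Tfcp2l1 encodes a transcription factor of the naive network, and 6 of its 24 eligible regions were members. The member at chr1:118630009-118634989 (mm10), in an intron 4554 bp from the start site, had 97.1 reads in formative and 258 in naive DKO cells, and 80.5 and 233 in dCD cells. In floxed cells it had 51.8 reads in the formative and 228 in the naive state, and in WT cells 61.6 and 193. Naive DKO was the highest of the 8 groups there, so the mark stood at the control level in naive cells without either enzyme and was still lower in formative DKO cells, at -1.37. The largest member by reads, 21671 bp from the start site, had 177 and 328 reads in formative and naive DKO, 171 and 353 in dCD, 227 and 481 in floxed and 226 and 427 in WT cells. Across the 6 members the median difference was -1.01 in DKO, -1.26 in dCD, -1.44 in floxed and -1.43 in WT cells. Of the 6, 5 had an H3K27ac log2 fold of -1 or below in both DKO and WT cells in the authors' deposited table, where Tfcp2l1 RNA had -2.76 in DKO and -2.86 in WT cells. The exception, 83845 bp from the start site, had H3K27ac folds of 2.24 in DKO and 0.44 in WT cells in the authors' deposited table, and only 17.5 H3K4me1 reads in naive DKO cells.

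**Figure D2:**
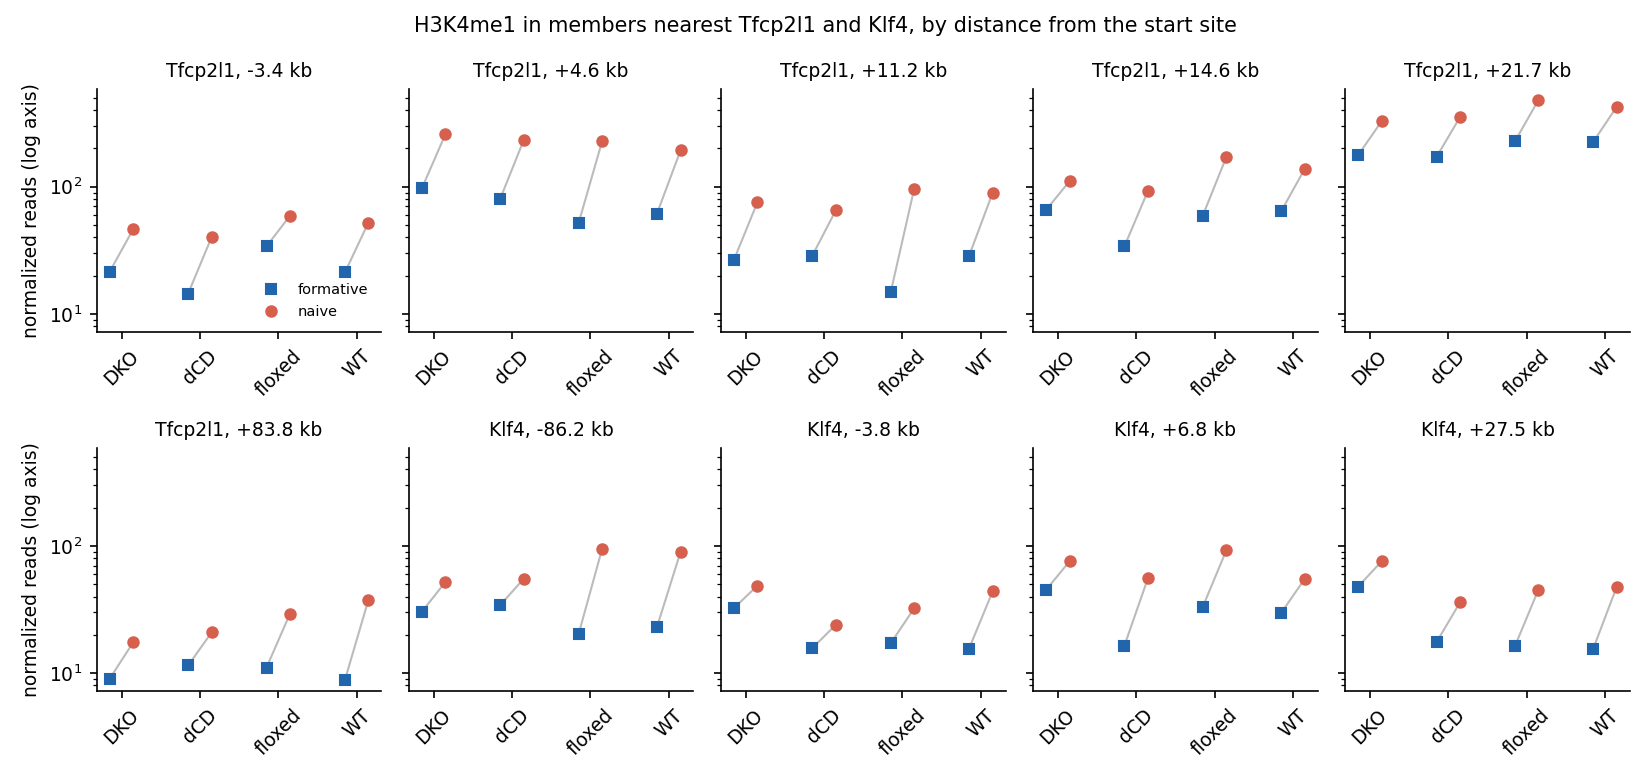
Normalized H3K4me1 reads (log axis) in the 6 members nearest Tfcp2l1 and the 4 nearest Klf4, each panel headed by the distance from the start site. Squares are formative and circles naive cells of DKO, dCD, floxed and WT lines, 1 pooled value per group. Every formative value lies below the naive value of its genotype, and at the 4 Klf4 members the gap is narrower in DKO than in WT, least so at the member 6832 bp from the start site, with -0.74 in DKO and -0.87 in WT cells.

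Klf4, a Krüppel-like factor gene induced by LIF, held 4 members among 19 eligible regions. The one at 6832 bp from the start site, whose stretch with 2 matches of the shared Esrrb and Nr5a2 motif is shown above, had 45.1 and 75.8 reads in formative and naive DKO, 16.4 and 55.7 in dCD, 33.3 and 92.5 in floxed and 29.8 and 55.1 in WT cells. The order of the genotypes was not that of the whole set, since dCD had the largest difference, at -1.71, and DKO the smallest, at -0.74. The member 86177 bp upstream had 30.4 and 52.0 reads in DKO, 34.2 and 55.4 in dCD, 20.3 and 95.0 in floxed and 23.1 and 89.6 in WT cells, a pattern in which the controls differed more. All 4 members had an H3K27ac fold of -1 or below in WT in the authors' deposited table, and 3 of the 4 in DKO. Klf4 RNA had a fold of -2.16 in DKO and -0.87 in WT cells in the authors' deposited table.

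Mras, which encodes a Ras-family GTPase, had 3 members among only 5 eligible regions, and they adjoin one another. The widest is 26384 bp long and centred 9215 bp from the start site, so it also covers that site and is not wholly distal. It had 731 and 1277 reads in formative and naive DKO, 566 and 1079 in dCD, 506 and 1253 in floxed and 519 and 1064 in WT cells. The next, at 25450 bp, had 86.8 and 183 reads in DKO, 55.1 and 131 in dCD, 58.3 and 175 in floxed and 54.8 and 187 in WT cells. At both, naive DKO stood at about the level of the controls. All 3 had H3K27ac folds of -1 or below in both genotypes in the authors' deposited table, and Mras RNA had -3.81 in DKO and -3.46 in WT cells.

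Zfp42 (also called Rex1, a zinc-finger marker of the naive state) had 3 members among 24 eligible regions. The one 17890 bp upstream had 17.6 and 31.4 reads in formative and naive DKO, 17.6 and 38.4 in dCD, 25.0 and 115 in floxed and 29.4 and 126 in WT cells, so that the naive mutant values were only slightly above the formative control values. The one at 38116 bp had 17.0 and 41.3 reads in DKO, 20.3 and 38.4 in dCD, 17.0 and 38.3 in floxed and 19.9 and 62.7 in WT cells. H3K27ac at it had folds of -0.15 in DKO and 0.02 in WT cells in the authors' deposited table, against -1.57 and -4.10 at the upstream one. Tet2, a dioxygenase of 5-methylcytosine, had 3 members, the one with the most reads having 183 and 336 reads in formative and naive DKO, 162 and 501 in dCD, 159 and 609 in floxed and 240.2 and 488 in WT cells.

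These loci belong to a naive pluripotency list of 30 genes, which supplied 26 members from 11 genes. The members were 6.18% of the 421 eligible regions nearest to the list, against 0.813% of all eligible regions. The list was chosen with earlier results of these data known, so this share is a description. Single genes with members were Tfcp2l1 (6), Klf4 (4), Mras, Tet2 and Zfp42 (3 each), Fbxo15 (2) and Esrrb, Jam2, Klf2, Pecam1 and Tcl1 (1 each). Of the 421 regions, 17.6% were lost in DKO, 26.1% in dCD, 51.5% in floxed and 48.2% in WT cells. Each was above the share of all eligible regions. Control-only regions were 77 of the 421 (18.29%), against 14251 of all 127163 eligible regions. Their share was therefore also higher at this list, so a higher share as such is not particular to the members. The factor was smaller than for the members, and that gap was not tested. Of the 26 members, 17 had an H3K27ac fold of -1 or below in DKO and 20 in WT cells in the authors' deposited table, where 17.1% of all eligible regions had one in DKO and 18.6% in WT. RNA values in the authors' deposited table existed for 7 of the 11 genes, and the fold was -1 or below for 7 in DKO and 6 in WT cells, the exception in WT being Klf4. Of all nearest genes in the authors' deposited table, 5.35% had such a fold in DKO and 9.87% in WT. Genes of the naive network are switched off in this transition, so lower RNA in WT follows from the choice of the list. Nothing is read from these RNA counts. The single member of Esrrb, an orphan nuclear receptor, went the other way in acetylation, with H3K27ac folds of 5.70 in DKO and 1.48 in WT cells in the authors' deposited table. Its H3K4me1 reads were 24.5 and 40.03 in formative and naive DKO, 21.1 and 37.0 in dCD, 16.4 and 32.6 in floxed and 20.1 and 33.3 in WT cells, with an FDR of 0.324 for WT in the authors' deposited table.

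The other lists held few members. At the 0.813% share of all eligible regions they would hold from 0.17 (2-cell-like) to 3.14 (LIF, 2i and WNT targets) each. None of the 373 eligible regions nearest to formative and primed genes was a member, where that share would give 3.03. Of these regions, 7.24% were lost in DKO, 6.70% in dCD, 10.7% in floxed and 5.09% in WT cells. The list of LIF, 2i and WNT targets had 4 members of 386 regions, all at Klf4. Core pluripotency genes had 2 of 146, near Dppa4 and Sall1, primitive endoderm genes 2 of 98, near Foxa2 and Lama1, and germ line genes 1 of 89, near Sycp3. Genes of the MLL3/4 complex and H3K4 methylation had 1 of 91, 5552 bp upstream of Rbbp5, a core subunit of these complexes. It had 37.0 and 59.8 reads in formative and naive DKO, 18.33 and 46.03 in dCD, 23.3 and 51.7 in floxed and 20.9 and 43.1 in WT cells. Trophoblast genes had 0 of 112 and 2-cell-like genes 0 of 21, where the share of all eligible regions would give 0.91 and 0.17. The fibroblast list, kept for feeder cells, had 2 of 65 (3.08%), near Col1a1 and Thy1, where that share would give 0.53. RNA of Col1a1 had folds of 1.90 in DKO and 1.30 in WT cells in the authors' deposited table, and the part of feeder cells was not tested.

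**Figure D3:**
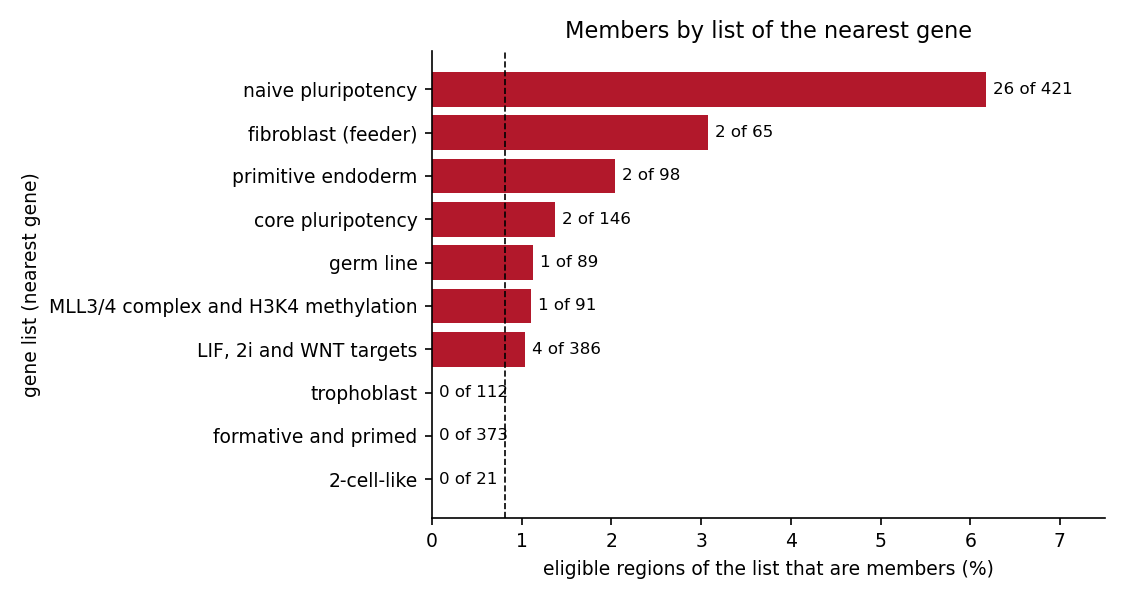
Share of eligible regions that are members (%, horizontal axis) for each list of nearest genes, with counts beside the bars and the share of all eligible regions, 0.813%, as the dashed line. The naive pluripotency list stands at 26 of 421 regions. The formative and primed list has none of 373, where the dashed share would give 3.03.

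Most members were the only one at their nearest gene. The 1034 members had 883 different nearest genes, and 257 members lay at the 108 genes with at least 2. Besides Tfcp2l1, the genes with the most members were Nsmce3, a subunit of the SMC5/6 complex, with 6 of 32 eligible regions, Arid5b with 5 of 30, Zfp704, a zinc-finger gene, with 5 of 26 and Dlgap3, a synaptic scaffold gene, with 4 of 11. The 6 nearest Nsmce3 were all intronic and lay 41422 to 91965 bp from its start site, on both sides of it. Which genes hold those introns was not identified. Kit, the receptor of stem cell factor, had 4 of 32, Rps6ka2, a ribosomal S6 kinase gene, 4 of 26 and Sgk1, a serum- and glucocorticoid-regulated kinase gene, 4 of 46. Pramef17 of the Prame family had 3 of 4, and reads there may be shared with near-identical copies of that family. The median H3K27ac fold over these members in the authors' deposited table was -0.83 in DKO and -2.58 in WT for Arid5b, -1.45 and -2.64 for Kit, and -1.08 and -2.97 for Sgk1. At Nsmce3 it was -0.56 in DKO and 0.33 in WT, and at Rps6ka2 -0.08 and 0.43, so H3K4me1 was lower there in formative cells of every genotype while median acetylation was not 2-fold lower. RNA folds in the authors' deposited table were -1.02 in DKO and -2.47 in WT for Arid5b, -2.18 and -2.06 for Kit, 0.40 and 0.07 for Nsmce3 and 1.03 and 0.38 for Rps6ka2. Zfp704 had median H3K27ac folds of -0.87 in DKO and -2.08 in WT, and RNA folds of -1.18 and -0.86, in the authors' deposited table, so acetylation and RNA were not ordered alike there. Sgk1 had no RNA value.

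H3K27ac was not part of the rule and came from other samples, of which only the authors' folds were used. The median formative minus naive H3K27ac fold over the members in the authors' deposited table was -0.60 in DKO and -0.52 in WT cells. Over all eligible regions it was 0.05 and 0.30, and over the control-only regions -0.13 and -0.21, again in the authors' deposited table. A fold of -1 or below in DKO was listed for 390 members (37.7%) in the authors' deposited table, against 17.1% of all eligible regions and 18.1% of the control-only regions. In WT it was listed for 398 members (38.5%) in the authors' deposited table, against 18.6% of all eligible and 26.7% of the control-only regions. A fold of 1 or above was listed in DKO for 139 members (13.4%), against 20.7% of all eligible and 11.9% of control-only regions, and in WT for 190 (18.4%), against 31.6% and 17.5%, in the authors' deposited table. Both genotypes were at -1 or below in 198 members (19.1%), against 4.86% of all eligible and 7.12% of the control-only regions in the authors' deposited table. These folds were used without an error, and the differences between sets were not tested.

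Members had a larger WT loss of H3K4me1 than control-only regions, so both were also compared within 1 band of WT difference, from -1.58 to -0.90, the middle of the members. In that band 516 members had median H3K27ac folds of -0.47 in DKO and -0.47 in WT cells in the authors' deposited table, and 7070 control-only regions had -0.14 and -0.19. The share at -1 or below in DKO was 35.7% of these members and 18.4% of these control-only regions in the authors' deposited table. In WT the shares were 37.6% and 26.5% in the authors' deposited table.

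The H3K27ac fold was lower at the members with a 2-fold loss than over all members but did not follow the size of the loss step by step. The 46 members with a 2-fold H3K4me1 loss in every genotype had median H3K27ac folds of -1.16 in DKO and -1.39 in WT cells in the authors' deposited table, and 27 of them were at -1 or below in DKO and 27 in WT. With the members ranked by the loss in their least changed genotype and cut into 4 sets of 258 or 259, the H3K27ac medians in DKO ran -0.67, -0.68, -0.45 and -0.59 from the strongest set to the weakest in the authors' deposited table. Those in WT ran -0.88, -0.57, -0.26 and -0.37 in the authors' deposited table. In DKO the strongest and weakest sets were close, and in both genotypes the weakest was below the one before it. Members within 20 kb of a start site had -0.74 in DKO and -0.82 in WT, and those farther away -0.47 and -0.30, in the authors' deposited table. In members whose naive DKO H3K4me1 was at least 2-fold below naive floxed the H3K27ac medians were -0.67 in DKO and -1.12 in WT in the authors' deposited table. Where naive DKO was at or above naive floxed they were -0.36 in DKO and 0.09 in WT in the authors' deposited table. Between the genotypes, the median naive H3K27ac fold of DKO over WT at the members was -0.11 and the formative one -0.07 in the authors' deposited table, against 0.02 and -0.19 over all eligible regions.

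RNA of the nearest gene had a value for 424 genes of members. Its median formative minus naive fold per gene in the authors' deposited table was -0.0036 in DKO and -0.24 in WT cells. Over 9855 nearest genes of all eligible regions it was 0.22 and 0.16, and over 3888 nearest genes of control-only regions 0.14 and 0.03, in the authors' deposited table. A fold of -1 or below in DKO was listed for 65 genes (15.3%), against 5.35% of all and 5.84% of control-only nearest genes, and in WT for 103 (24.3%), against 9.87% and 13.3%, in the authors' deposited table. A fold of 1 or above in DKO was listed for 54 genes (12.7%), against 20.1% of all and 14.5% of control-only nearest genes, and in WT for 47 (11.1%), against 19.0% and 10.7%, in the authors' deposited table. Both genotypes were at -1 or below for 49 genes (11.6%), against 2.78% of all nearest genes in the authors' deposited table. The lowest WT folds in the authors' deposited table were those of Pglyrp1, a peptidoglycan recognition protein, at -1.23 in DKO and -4.53 in WT cells, St8sia1, a ganglioside synthase, at 0.15 and -4.40, and Grhl3, a grainyhead-like transcription factor, at -4.56 and -3.82. The highest WT folds in the authors' deposited table were those of Arhgef16, at 1.06 in DKO and 3.14 in WT, Amn, at 0.18 and 3.04, and Patj, at 1.30 and 2.95, so a lost region could lie nearest to a gene whose RNA was higher in formative cells. Nearest gene is a matter of distance only. Restricted to members within 20 kb of a start site, the median fold was -0.25 in DKO and -0.36 in WT cells in the authors' deposited table.

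**Figure D4:**
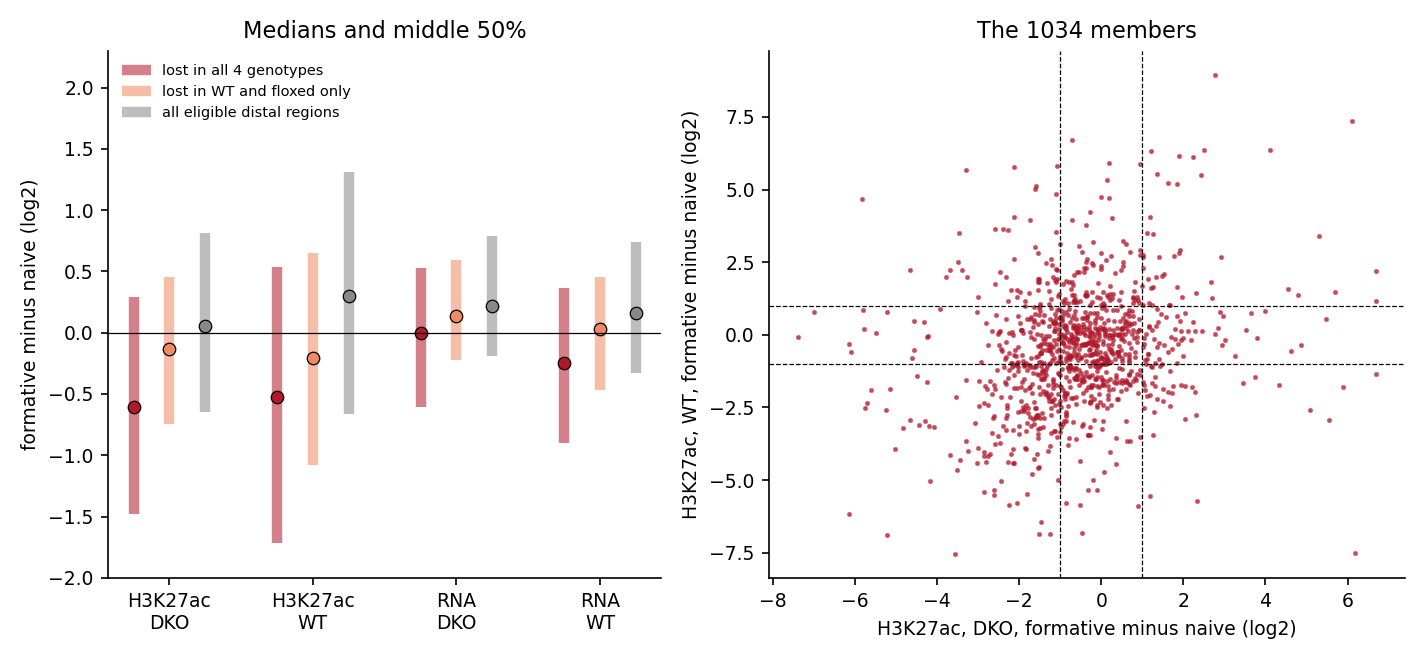
Left, authors' log2 folds of H3K27ac per region and of RNA per nearest gene, formative minus naive (vertical axis), in DKO and WT cells, as medians (circles) and middle 50% (bars) of members, control-only regions and all eligible regions. Right, the H3K27ac fold of each member in DKO (horizontal axis) against WT (vertical axis), with dashed lines at 2-fold. Member medians of H3K27ac lie at -0.60 in DKO and -0.52 in WT, below both other sets, and 198 members lie in the lower left corner.

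Of the 5 lowest and 5 highest WT folds of H3K27ac, those of every member but the one nearest Tifab lay at regions with at most 43.7 H3K4me1 reads in any group. The member nearest Tifab had 43.5 and 76.8 H3K4me1 reads in formative and naive DKO, 27.7 and 44.5 in dCD, 20.5 and 117 in floxed and 24.0 and 94.4 in WT cells, with H3K27ac folds of -3.57 in DKO and -7.54 in WT in the authors' deposited table. At the other end, the member nearest Aqp1 had a WT fold of 8.95 in the authors' deposited table and no more than 34.4 H3K4me1 reads in any group.

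The gap between mutants and controls varied among members, and its extremes are given here. The formative minus naive difference in DKO minus that in floxed cells had a median of 0.44 and ran from -0.87 to 2.12, and that of dCD minus WT a median of 0.31, from -1.38 to 2.60. At the member nearest Pdyn, a prodynorphin gene, DKO cells had 16.9 reads in the formative and 30.6 in the naive state and dCD cells 9.92 and 23.1. Floxed cells there had 6.50 reads in the formative and 49.7 in the naive state and WT cells 4.00 and 41.03, a wider gap than the mutants had. The other direction was seen near Ccn2, where dCD had 8.05 and 35.2 formative and naive reads, against 20.2 and 33.1 in WT cells, and near Frmd4b, where DKO had 25.4 and 72.5, against 43.9 and 67.2 in floxed cells. All 3 were chosen for their unevenness, so their values are a description.

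Members lay farther from start sites than the other sets, while their base composition was close to that of all eligible regions. They lay in introns in 54.3% of cases, against 54.8% of all eligible and 66.0% of control-only regions, and 36 were on chromosome 18. Their median distance from a start site was 27062 bp, against 19972 bp for all eligible and 19780 bp for control-only regions, and 38.5% lay within 20 kb, against 50.0% and 50.4%. Median length was 1870 bp against 2087 bp and 2421 bp, and median GC content 46.1% against 46.3% and 45.7%. Repeat-masked bases made up a median of 17.6% of the members' sequence windows and 17.2% of those of all eligible regions. By chromosome, members made up between 0.598% of eligible regions on chromosome 9 and 1.19% on chromosome 13, apart from Y with 0 of 17.

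Motifs were searched on both strands in the central 500 bp, with exact letters. The STAT motif (TTCCNGGAA) was held by 35 members (3.38%), against 1.64% of all eligible and 1.58% of control-only regions, and outside repeats by 31 (3.00%), against 1.31% and 1.22%. The KLF motif was held by 259 members (25.0%), against 18.4% and 20.9%, and outside repeats by 134 (13.0%), against 9.55% and 9.99%. For the Esrrb and Nr5a2 motif the count was 86 (8.32%), against 6.32% of all eligible and 9.65% of control-only regions, and outside repeats 46 (4.45%), against 3.07% and 4.04%. The octamer (ATGCAAAT) was in 3.68% of members, against 3.41% of all eligible and 2.57% of control-only regions. Shares of the bicoid-type motif of OTX2 (GGATTA) were 17.0%, 18.8% and 20.6% in the same order. The CTCF core motif was in 2 members (0.193%), against 0.763% and 0.330%, and the GC box (GGGGCGGGG) in 11 (1.06%), against 2.05% and 1.23%. TEAD (GGAATG) at 28.8% against 27.1% and AP-1 (TGANTCA) at 15.3% against 15.0% of all eligible regions were close to the background, as was the CNRG repeat of TFCP2L1 at 59.5% against 60.6%. The long OCT4-SOX2 composite was in none of the members and in 11 of all eligible regions, too few to compare. Members with a STAT motif had H3K4me1 differences of -0.80 in DKO and -1.26 in WT cells, against -0.76 and -1.20 in members without it. In the authors' deposited table their median H3K27ac folds were -0.24 and -0.37, against -0.61 and -0.52. The Esrrb and Nr5a2 motif went the other way there, with -0.79 in DKO and -0.92 in WT, against -0.59 and -0.47 without it. For KLF these were -0.70 and -0.36, against -0.58 and -0.54, and for the octamer -0.68 and -0.07, against -0.60 and -0.53.

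**Figure D5:**
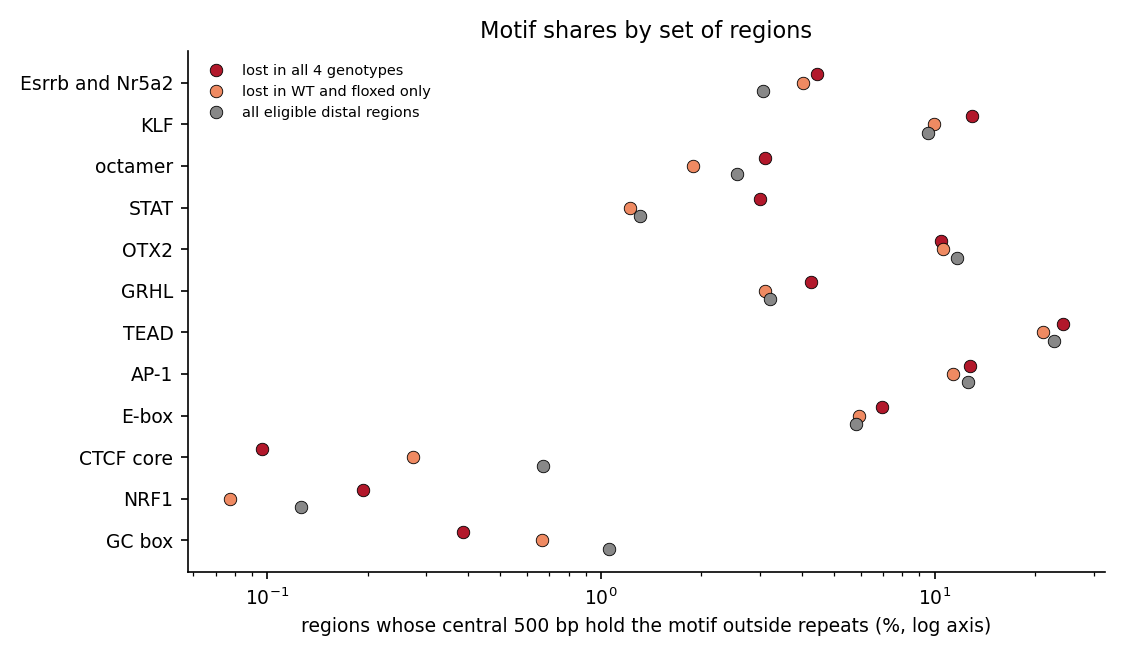
Share of regions whose central 500 bp hold a motif outside repeat-masked sequence (%, log axis), for members, control-only regions and all eligible regions. The CNRG repeat of TFCP2L1 and the OCT4-SOX2 composite are not drawn. STAT stands at 3.00% in members, against 1.22% in control-only and 1.31% in all eligible regions. CTCF stands at 0.0967%, which is 1 member, against 0.274% and 0.671%.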

How the data were processed

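H3K4me1 CUT&RUN libraries, 16 of the 21 samples, were compared, while the 4 MLL4 libraries and 1 IgG library were not analysed here. Per the submitters' processing notes, the build was mm10 and the tools included deepTools, DiffBind, SEACR, Bowtie2 and Trim Galore, with neither version nor role stated there. The deposited levels are log2 values, 1 column per group of 2 libraries, per the file headers. In WT cells, where Conc was deposited for each state, they followed the log2 of 1 plus 2 to the power 22.2 times normalized reads over squared width. Levels of every genotype were turned back into reads, on the scale of Conc, with that form. Its fit was not checked in DKO, dCD and floxed cells. Conc, a log2 mean of reads, and the p-values with their FDR were deposited by the authors for the WT comparison. H3K27ac and RNA columns hold the authors' log2 folds per the file headers; their samples lie outside the series, and how they were made is not given in the sources used here.

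The CKO columns stand for the floxed line. The planned test per region could not be made, since columns pool the libraries. Members, gene lists and motifs were chosen with earlier results of these data known. Named were the 10 members with the largest loss in their least changed genotype, the 10 genes with the most members, list members, the 5 extremes of H3K27ac, RNA and uneven loss, and those next to the threshold. Coordinates start at 1 and all ends lay within the reference chromosomes. RNA folds were reduced to the median per gene name. Motifs were searched in 127152 regions with a full window. Alternatives changed scaling, thresholds, distance and windows. Scripts were tested on simulated data. Another 14 level columns and 1 fold column were not used. Python 3.11.15, pandas 2.3.3, numpy 2.4.6 and scipy 1.17.1 were used.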

Additional observations from a re-analysis of the deposited data

Results flagged for a closer look

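At the member nearest Peg13, in an intron on chromosome 15, the authors' deposited H3K27ac fold between formative and naive cells was 6.18 in DKO and -7.50 in WT cells. It is listed because the directions are opposite in the 2 genotypes, and the difference was not tested. The deposited H3K27ac fold of DKO over WT there was -7.50 in naive and 6.18 in formative cells, the same 2 values. Formative WT and naive DKO therefore stood at 1 shared level. H3K27ac read numbers were not available, so whether that level was a floor was not tested. The H3K4me1 reads there were 3.92 and 11.8 in formative and naive DKO, 9.07 and 16.5 in dCD, 12.7 and 33.1 in floxed and 13.0 and 26.5 in WT cells. In all, 40 members (3.87%) had an H3K27ac fold of 1 or above in DKO and of -1 or below in WT in the authors' deposited table, against 2.79% of all eligible regions, and 57 (5.51%) the reverse, against 5.10%.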

How the results depend on the processing

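No paired analysis was possible because each group has 1 column that combines its 2 libraries, and for the same reason no library could be left out. Of 66 alternatives, 37 were labelled the same, 27 moved and 2 turned direction. Counts were labelled the same up to a 1.5-fold ratio, and medians and shares within a 95% interval over the members. That interval treats members as independent and is not a spread between libraries. The member count was 46 at a 2-fold threshold, 576 with Conc of at least 5 and 486 with 32 or more reads in every naive group. Scaling also changed the set. With each group centred 766 regions met the rule, all among the 1034, and with quantile normalization 773 did, of which 712 were among the 1034. With each group centred on its median the formative minus naive medians were -0.73 in DKO, -0.79 in dCD and -1.22 in floxed cells, and with quantile normalization -0.71 in DKO, -0.79 in dCD and -1.26 in WT cells. DKO minus floxed moved to 0.29 (centred) and 0.27 (quantile) in formative and to -0.22 and -0.31 in naive cells, and dCD minus WT to -0.16 and -0.29 in naive cells. In formative cells dCD minus WT reversed from -0.17 to 0.23 (centred) and 0.18 (quantile), with medians over all regions of 5.19 in formative dCD and 5.59 in formative WT cells. At an FDR under 0.01 the authors' count was 399. The H3K27ac median was -1.16 in DKO and -1.39 in WT for 2-fold members, -0.78 and -0.77 for members over the median Conc, and -0.83 in DKO with 32 or more naive reads. The nearest-gene RNA median was -0.25 in DKO and -0.36 in WT within 20 kb, and -0.15 in DKO with 32 or more naive reads. In a 200 bp window the CTCF motif's share in members over background was 0. The naive list made up 4.53% of members with 32 or more naive reads and 8.70% of 2-fold members, against 2.51%. Except for the scaling, and for settings with fewer members by construction, the cause was not tested. Low read numbers limit the single-region differences.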
